A study of Mus musculus with 4 samples.

Results

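The tumour necrosis factor (TNF) superfamily was examined through H3K27ac, an acetylation of histone H3 that marks active promoters and enhancers. Members were the RefSeq protein-coding genes of mouse build GRCm38 (mm10) whose symbol begins with Tnfsf or Tnfrsf and a number, together with Tnf, Lta, Ltb, Ltbr, Fas, Fasl, Cd27, Cd70, Cd40 and Cd40lg. This rule took 41 of 21887 genes, of which 17 encode ligands and 24 encode receptors. Members were taken by name and not by a measured value of their own, but the choice was made with earlier results of these data known. For each, the deposited H3K27ac peaks within the gene and 10 kb on either side were counted, and the bases they cover (the acetylated length) were summed.

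The series compared C57BL/6 mouse bone marrow cells that carry BRD9-NUTM1, called BN1 by the submitters, with control cells. The fusion joins a chromatin remodelling subunit to a testis protein that binds an acetyltransferase, and occurs in leukaemia. Cells of both groups are labelled CD45.2-positive bone marrow cells, with the genotype field given as cKit(+) for the control and cKit(+) BRD9-NUTM1 for BN1. The labels give no age, no promoter or vector for the fusion, and no number of animals pooled. The extract protocol names sorted cKit-positive BN1 cells for the control samples too. Of 4 labelled samples, 2 are ChIP libraries (1 per group) with a peak list each, and the 2 input libraries were not analysed here.

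Several facts limit any direction given here. The peak names inside the list of the control sample begin with BRNU, and those inside the list of the BN1 sample begin with BM, which reads the other way from the titles. Groups follow the titles, and every direction holds for the labels only. With 1 library per group there was no replicate error and no test, and every difference describes these 2 libraries. The control-labelled list held 28343 peaks over 31.0 Mb and the BN1-labelled list held 19148 peaks over 19.1 Mb, a 1.62-fold difference in covered length, so each length is given in bp and, where the scale matters, per Mb that its list covers. Read depth is unknown, and the absence of a peak says only that no region was called. A peak list cannot tell a change in the cells from a change in which cells were present. No peak of either list lay at Kit, which encodes the sorted receptor, while Ptprc, which encodes CD45, had 6634 bp labelled control and 2958 bp labelled BN1.

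TNF superfamily ligands are mostly trimeric proteins on the cell surface or shed from it, and they act by clustering their receptors. Receptors with a death domain can recruit caspases and kill the cell. The other signalling receptors bind TRAF adaptors and switch on NF-kB and MAP kinases, and decoy receptors capture ligand without passing on the signal. In bone marrow and lymphoid tissue the family is known for inflammation driven by TNF, for osteoclast formation through RANK (Tnfrsf11a) and its ligand (Tnfsf11), and for B cell survival through BAFF (Tnfsf13b) and APRIL (Tnfsf13).

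Of the 41 genes, 27 (65.9%) had a region in the control-labelled list, beside 58.4% of all protein-coding genes, and 23 (56.1%) had one in the BN1-labelled list, beside 54.0%. Both shares lie near the background. How the regions were divided between the lists differed more. A region in both lists was found at 18 members (43.9%, beside 50.2% of all genes), in the control-labelled list only at 9 (22.0%, beside 8.15%), in the BN1-labelled list only at 5 (12.2%, beside 3.81%) and in neither at 9 (22.0%, beside 37.8%). The median gene length was 12761 bp for the members and 17169 bp for all genes, and the part of window length in these shares was not tested. The counts are small and carry no test, and they depend on the setting. With lists of equal length the classes held 6 control-only and 7 BN1-only members, which turns their order round, and with 50 kb flanks they held 5 and 4. Of the 9 control-only members, between 4 (50 kb flanks) and 9 (peaks given to the nearest gene only) kept their class over the settings run. Of the 5 BN1-only members, 2 kept theirs with 50 kb flanks, 2 under a −log10 q minimum of 10, and all 5 with lists of equal length.

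**Figure D1:**
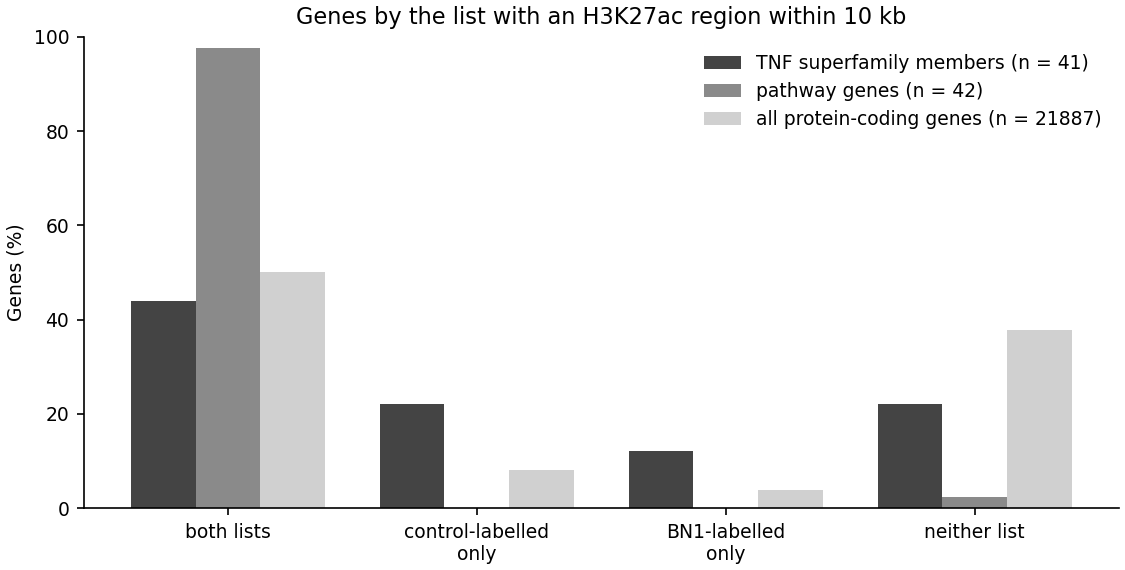
Share of genes (y axis, %) with an H3K27ac region within 10 kb in both lists, in 1 list only or in neither, for the 41 TNF superfamily genes (dark), 42 other genes of the pathway (mid grey) and all 21887 protein-coding genes (light). Genes with a region in 1 list only made up 22.0% (control-labelled) and 12.2% (BN1-labelled) of the members. No pathway gene was of this kind, though single peaks at pathway genes could be unshared.

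In bp, 22 members were longer in the control-labelled list (43.9% of all genes were) and 10 in the BN1-labelled list (18.2%). Per Mb of covered length the counts were 17 (26.0% of all genes) and 15 (36.2%). A difference of at least 2000 bp was found at 11 members, all longer in the control-labelled list (11.9% of all genes), and at no member in the other direction (2.79%). The 11 are not separate observations. The windows of Tnfsf12 and Tnfsf13 overlap, as do those of Tnfrsf26, Tnfrsf22 and Tnfrsf23. With 1 member for each of the 35 clusters of overlapping windows, 18 were longer in bp in the control-labelled list and 8 in the BN1-labelled list. BN1 minus control, the median over the 32 members with any region was -691 bp or -8.14 bp per Mb, beside -457 bp and 10.2 bp per Mb over the 13606 such genes of all. The median per Mb moved to 0.067 with lists of equal length, so its sign is not stable.

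The windows of the members held 74 different peaks in the control-labelled list and 47 in the BN1-labelled list. A peak was called shared where it overlapped a peak of the other list by at least 1 bp. Shared peaks made up 36.5% of the former (27 of 74; exact 95% interval 25.6 to 48.5) and 63.8% of the latter (30 of 47; 48.5 to 77.3), intervals that cover counting error only. Over the windows of all protein-coding genes the shares were 44.9% and 67.3%, both inside the members' intervals. In bases, the member peaks covered 107490 bp and 54000 bp, a ratio of 1.99 beside 1.60 over all genes, and 34640 bp were common to both lists.

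Shared peaks were the stronger ones by median, at members as at genes in general. The median fold enrichment at the summit, the authors' own value per peak, was 11.4 for shared and 5.80 for unshared member peaks in the control-labelled list, beside 11.1 and 5.06 over all protein-coding genes. In the BN1-labelled list it was 7.66 and 4.59, beside 9.96 and 4.80. Peaks within 1000 bp of an end of a member were shared in 12 of 24 cases in the control-labelled list, where 78.2% of the peaks at gene ends in general were. In the BN1-labelled list 12 of 16 were shared, beside 87.9%. Inside members and away from their ends, 4 of 21 and 6 of 11 were shared, where 2419 of 11532 and 2745 of 6037 were over all genes. Outside them, 11 of 29 and 12 of 20 were shared at members, and 615 of 2444 and 647 of 1616 over all genes. These outside classes are not alike. Member peaks of this class can lie at or in genes outside the family, while those over all genes lie outside every protein-coding gene. Another gene than a member was nearest for 9 of the 74 and 14 of the 47 peaks, and those regions need not belong to the family.

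RefSeq's promoter table (GRCm38.p6) held a start site for 31 of the 41 members. A peak lay within 1000 bp of the start in both lists at 6 of them (19.4%, beside 40.6% of the 17492 protein-coding genes in the table): Tnf, Tnfsf13, Tnfrsf1a, Tnfrsf1b, Tnfrsf14 and Ltbr. It did so in the control-labelled list only at 6 (19.4%, beside 6.21%), namely Tnfrsf11a, Tnfrsf12a, Tnfrsf23, Tnfsf14, Tnfsf13b and Fas. In the BN1-labelled list only it did so at 4 (12.9%, beside 2.92%), namely Ltb, Tnfrsf21, Tnfrsf19 and Tnfsf10. The remaining 15 starts had none (48.4%, beside 50.2%). These start counts are small, carry no test and were made under 1 setting only. Some rest on weak peaks: the −log10 q at the start was 3.78 at Fas, 4.68 at Tnfsf13b, 4.16 at Tnfsf10 and 8.31 at Tnfrsf19. No start was in the table for Cd40, Cd40lg, Cd70, Tnfrsf10b, Tnfrsf11b, Tnfrsf22, Tnfrsf26, Tnfsf4, Tnfsf9 and Tnfsf12.

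Promoter sequences are shown for the 8 members with the widest peak within 1000 bp of the start, at most 4 per class. Each runs 5′ to 3′ on the gene's strand from 250 bases before the start to 50 after it. Capitals mark matches, on either strand, to GGG and CC parted by 5 bases of any kind (an NF-kB core), TGANTCA (AP-1), TTGCNNAA (C/EBP), AGGAAG (ETS factors such as PU.1) or TGTGGT (RUNX), and matches can overlap each other. The first 4 had a peak within 1000 bp of the start in both lists, the next in the BN1-labelled list only and the last 3 in the control-labelled list only. At Tnf only the control peak covered the start, and the nearest BN1 peak (35200717 to 35201764) did not reach the printed sequence.
Tnfrsf1a (chr6:125349473-125349772, plus strand): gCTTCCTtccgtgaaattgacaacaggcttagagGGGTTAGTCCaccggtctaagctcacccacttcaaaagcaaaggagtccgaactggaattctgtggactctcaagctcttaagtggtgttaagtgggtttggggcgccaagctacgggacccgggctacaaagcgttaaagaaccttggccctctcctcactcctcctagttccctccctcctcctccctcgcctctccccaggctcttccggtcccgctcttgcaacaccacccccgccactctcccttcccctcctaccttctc
Tnfrsf14 (chr4:154928028-154928327, minus strand): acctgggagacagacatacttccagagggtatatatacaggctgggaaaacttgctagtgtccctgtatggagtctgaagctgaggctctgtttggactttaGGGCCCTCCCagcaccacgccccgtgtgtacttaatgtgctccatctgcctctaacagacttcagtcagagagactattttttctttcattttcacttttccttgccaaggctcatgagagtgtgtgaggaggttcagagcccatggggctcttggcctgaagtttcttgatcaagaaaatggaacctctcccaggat
Tnf (chr17:35201958-35202257, minus strand): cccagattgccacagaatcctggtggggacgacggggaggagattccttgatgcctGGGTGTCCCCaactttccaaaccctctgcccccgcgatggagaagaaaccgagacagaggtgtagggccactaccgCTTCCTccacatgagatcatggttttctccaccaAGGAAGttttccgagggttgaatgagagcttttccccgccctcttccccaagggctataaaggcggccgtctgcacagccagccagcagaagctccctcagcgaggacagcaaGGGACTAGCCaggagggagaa
Tnfsf13 (chr11:69685505-69685804, minus strand): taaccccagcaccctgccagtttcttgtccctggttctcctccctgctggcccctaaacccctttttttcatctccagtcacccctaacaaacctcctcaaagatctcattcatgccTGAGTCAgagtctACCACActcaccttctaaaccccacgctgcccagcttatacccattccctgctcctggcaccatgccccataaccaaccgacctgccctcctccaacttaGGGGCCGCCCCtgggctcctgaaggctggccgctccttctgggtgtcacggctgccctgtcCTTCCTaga
Ltb (chr17:35194257-35194556, plus strand): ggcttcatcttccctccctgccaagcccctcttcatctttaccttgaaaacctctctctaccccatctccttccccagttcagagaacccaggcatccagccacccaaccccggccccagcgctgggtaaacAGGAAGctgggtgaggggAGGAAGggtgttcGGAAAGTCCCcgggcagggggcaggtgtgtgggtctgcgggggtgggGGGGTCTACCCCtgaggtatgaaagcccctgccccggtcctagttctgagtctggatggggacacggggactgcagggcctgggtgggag
Tnfrsf12a (chr17:23677400-23677699, minus strand): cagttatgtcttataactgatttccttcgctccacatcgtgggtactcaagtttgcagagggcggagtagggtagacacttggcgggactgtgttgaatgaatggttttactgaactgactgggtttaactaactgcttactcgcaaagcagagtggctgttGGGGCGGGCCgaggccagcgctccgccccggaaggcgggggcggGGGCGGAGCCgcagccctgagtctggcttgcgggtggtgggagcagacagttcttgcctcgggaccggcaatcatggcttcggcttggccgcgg
Tnfrsf23 (chr7:143685826-143686125, minus strand): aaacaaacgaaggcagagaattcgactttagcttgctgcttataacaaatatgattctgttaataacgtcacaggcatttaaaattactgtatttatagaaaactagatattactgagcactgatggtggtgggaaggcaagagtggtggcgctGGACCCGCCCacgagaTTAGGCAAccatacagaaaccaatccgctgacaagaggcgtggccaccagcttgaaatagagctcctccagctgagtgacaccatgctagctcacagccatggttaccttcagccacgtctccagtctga
Tnfrsf11a (chr1:105780473-105780772, plus strand): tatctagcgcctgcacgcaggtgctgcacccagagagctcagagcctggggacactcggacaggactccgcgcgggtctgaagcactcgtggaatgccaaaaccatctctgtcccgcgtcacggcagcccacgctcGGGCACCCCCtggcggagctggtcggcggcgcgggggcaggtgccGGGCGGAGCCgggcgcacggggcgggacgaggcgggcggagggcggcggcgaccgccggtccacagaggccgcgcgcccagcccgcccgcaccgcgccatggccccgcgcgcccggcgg

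The promoter of Ltb, the only 1 of the 8 acetylated in the BN1-labelled list alone, held 5 overlapping or separate NF-kB core matches and 2 AGGAAG matches. Among the former is GGAAAGTCCC, which begins at position -87 from the start. The NF-kB core is a loose pattern, present in 22 of the 35 member promoters in the table, where a gene can have several (62.9%) and in 57.0% of the 21263 promoters of protein-coding genes, so its presence sets no member apart. AGGAAG was found in 18 of 35 (51.4%, beside 34.4%), TGANTCA in 7 of 35 (beside 6.99%), TGTGGT in 6 (17.1%, beside 15.0%) and TTGCNNAA in 3 (8.57%, beside 10.2%). All 3 TTGCNNAA matches (Tnfrsf23, Tnfsf13b and Tnfsf14) were at genes with a start acetylated in the control-labelled list only, a class that held 7 of the 35 promoters. Classes were set per gene, and Tnfsf13b has 2 starts, so its matching promoter need not be the acetylated one. TGANTCA occurred at Fas, Tnfsf13b and Tnfsf14 of that class, at Tnfsf13 among those acetylated in both, and at Tnfrsf8 and Tnfrsf9, whose starts had no peak. A match describes letters in this window and is neither a binding site nor a cause.

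Among the 17 ligands, 5 had a region in both lists, 5 in the control-labelled list only, 1 in the BN1-labelled list only and 6 in neither. Their windows held 29 peaks labelled control, 8 of them at Tnfsf9 alone, and 10 labelled BN1. The 24 receptors had 45 and 37, and all protein-coding genes 23748 and 16219. Of the receptors, 13 had a region in both lists, 4 in the control-labelled list only, 4 in the BN1-labelled list only and 3 in neither, and the difference between the roles was not tested. Over all protein-coding genes these classes held 50.2%, 8.15%, 3.81% and 37.8%, in the same order. The median difference was -1086 bp (-35.0 bp per Mb) over the 11 ligands with a region, and -478 bp (7.63 bp per Mb) over the 21 such receptors.

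**Figure D2:**
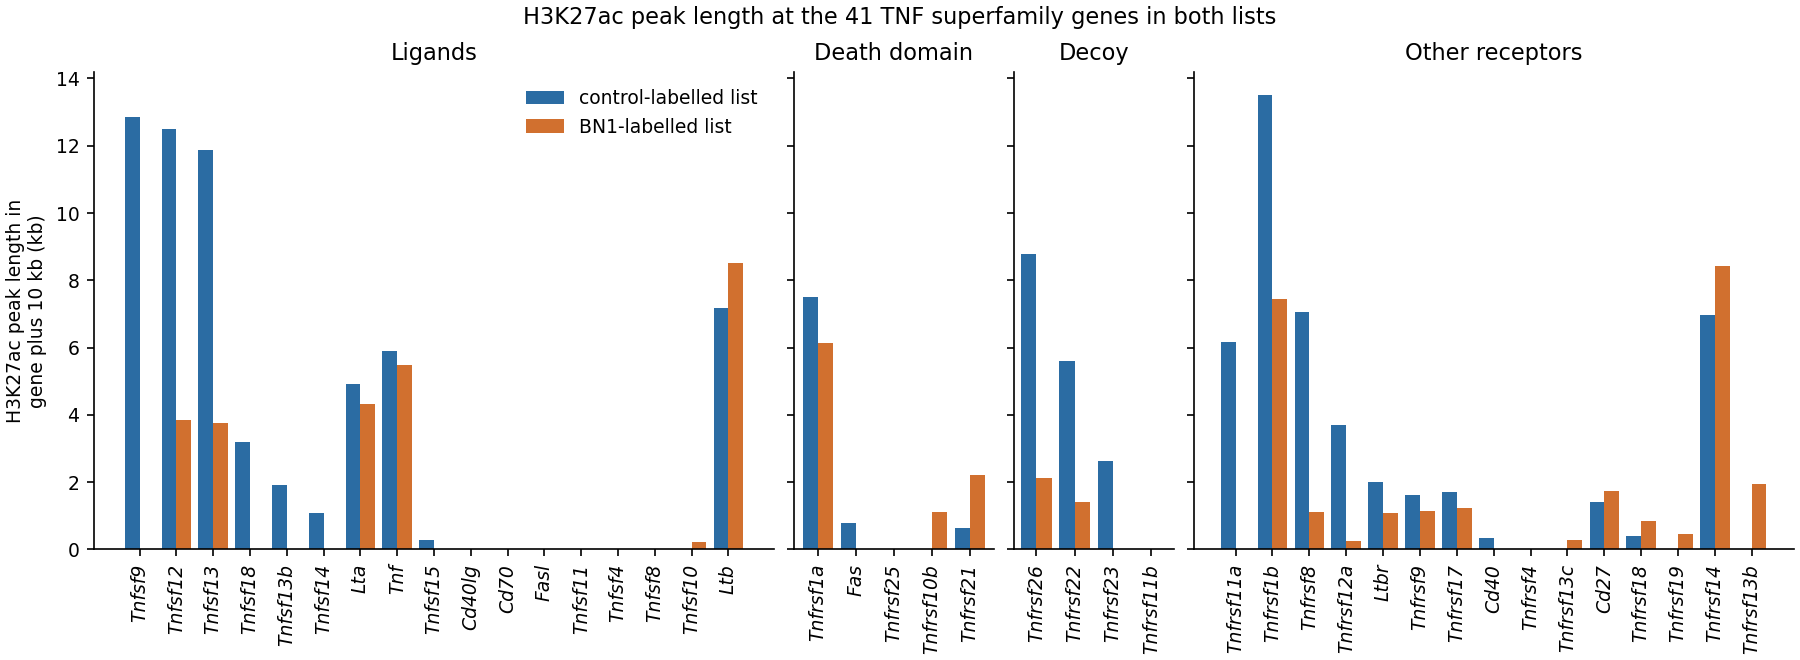
H3K27ac peak length within the gene plus 10 kb (y axis, kb) for each of the 41 members, in the control-labelled list (blue) and in the BN1-labelled list (orange), by role. Tnfsf9, Tnfsf12, Tnfsf13 and Tnfrsf1b carried over 11 kb in the control-labelled list, and no member exceeded 9 kb in the BN1-labelled list.

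The longest acetylation of a ligand in bp, over peaks of any strength, was at Tnfsf9, the costimulatory ligand of the T cell receptor Tnfrsf9 (chromosome 17, 57105287 to 57107758). The control-labelled list had 8 peaks there, covering 12865 bp, and the BN1-labelled list had none. The peaks were 217 to 2286 bp wide and lay between 57097506 and 57114830. Among them, 1 lay inside the gene and all 8 had Tnfsf9 as their nearest protein-coding gene. Their fold enrichment ranged from 3.18 to 18.9, and the strongest stood at percentile 90.7 of that list. By the difference in bp, Tnfsf9 ranked 109 of 21887 genes toward the control-labelled list. Under a −log10 q minimum of 10 it still had 10458 bp against none, and Tnfsf12, with 12286 bp, was then longer. Without flanks 2286 bp remained.

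Its receptor Tnfrsf9, by contrast, had no peak inside the gene in either list. A shared peak outside it (1626 bp labelled control, 1065 bp labelled BN1) was nearest to Park7, as was the other BN1 peak. On the same chromosome as Tnfsf9 lie Cd70, the ligand of Cd27, which had no region in either list, and Tnfsf14 (LIGHT, a ligand of Tnfrsf14 and Ltbr). Tnfsf14 had 2 weak peaks in the control-labelled list (550 bp at the start, fold 4.89; 536 bp, fold 6.96) and none in the BN1-labelled list.

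Tnf, Lta and Ltb lie side by side on chromosome 17 (35194507 to 35205578), and their windows share peaks. At Tnf, the inflammatory cytokine, the control-labelled list had 1 peak of 2573 bp across the gene with a fold enrichment of 11.5. The BN1-labelled list had 2 narrower ones inside the same span, of 1048 bp (fold 9.17) and 410 bp (fold 3.75). The start of Ltb, which encodes the membrane anchor of lymphotoxin heterotrimers, was covered by a peak of 2162 bp (fold 5.91) in the BN1-labelled list, and the control-labelled list had none between 35190539 and 35199796. Lta, the soluble lymphotoxin, had no peak inside the gene in either list. Within the 10 kb windows, totals were 5885 bp labelled control and 5496 bp labelled BN1 at Tnf, 4915 and 4312 bp at Lta, and 7173 and 8526 bp at Ltb. The Tnf and Lta differences changed sign per Mb (97.7 and 67.1 bp per Mb). Much of the Ltb total came from a region next to Lst1, covered by 2 peaks of 3630 and 970 bp in the control-labelled list and by 1 of 4906 bp in the other.

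**Figure D3:**
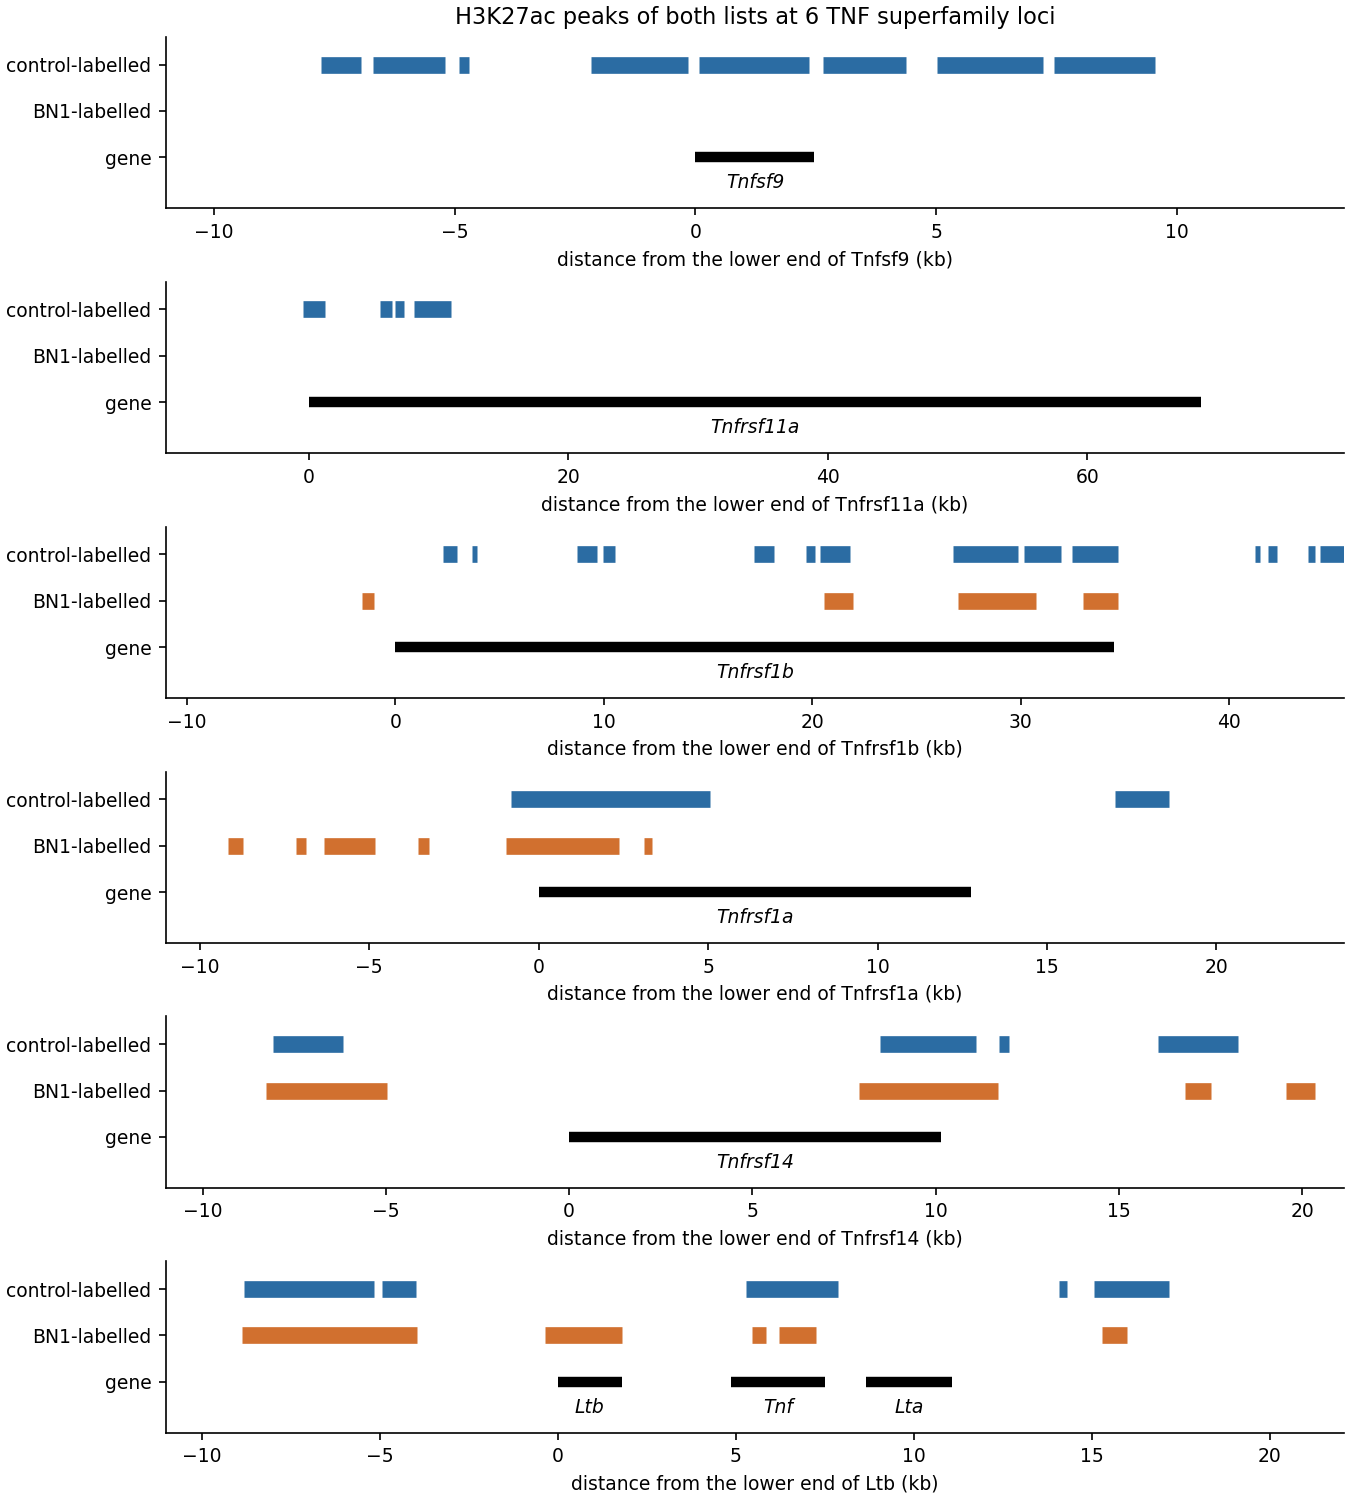
Positions of H3K27ac peaks in the control-labelled list (blue) and the BN1-labelled list (orange) at 6 loci, as distance in kb from the lower end of the gene named on each axis, with genes as black bars. Tnfsf9 and Tnfrsf11a have peaks in the control-labelled list only, while a peak covers Ltb in the BN1-labelled list only.

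Tnfsf12 (TWEAK) and Tnfsf13 (APRIL) are neighbours on chromosome 11 (69682577 to 69696098), where RefSeq also lists Tnfsfm13, a gene over both that the rule does not include. Within 10 kb Tnfsf12 had 12503 bp labelled control and 3848 bp labelled BN1, and Tnfsf13 had 11874 and 3750 bp. The largest single contrast was over the upper part of Tnfsf12, where the control-labelled list had a peak of 5730 bp (fold 16.7) and the BN1-labelled list one of 819 bp (fold 4.42) inside it. At the start of Tnfsf13 both lists had a peak, of 2471 bp (fold 9.45) and 1108 bp (fold 5.30). Another region, at fold 17.1 labelled control and 27.7 labelled BN1, touches the ends of both Tnfsf13 and Senp3 and cannot be assigned to either. With peaks given to their nearest gene only, Tnfsf12 kept 9872 against 819 bp and Tnfsf13 5102 against 3029 bp.

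Of the ligands of B cell survival, Tnfsf13b (BAFF) had 2 peaks in the control-labelled list and none in the BN1-labelled list. They were a weak one of 589 bp at its start (fold 4.64) and one of 1331 bp inside the gene (fold 12.4). Tnfsf18 (the ligand of GITR) had 4 peaks covering 3200 bp in the control-labelled list, the strongest 1735 bp wide inside the gene (fold 15.8), and none in the BN1-labelled list. None of these 4 lay within 1000 bp of its start. Tnfsf15 (TL1A) had a peak of 277 bp in the control-labelled list 8163 bp from the gene. Tnfsf10 (TRAIL, the death receptor ligand) had a peak of 224 bp (fold 3.94) just before its start in the BN1-labelled list. Fasl, Cd70, Cd40lg, Tnfsf4 (OX40 ligand), Tnfsf8 (CD30 ligand) and Tnfsf11 (RANK ligand) had no region in either list. Of 12 T and NK cell markers, 5 had no region in either list (Cd3e, Cd8a, Ncr1, Gzmb and Bcl11b) and 7 had one in at least 1 list (9649 bp summed labelled control, 16108 bp labelled BN1). Among the latter were Cd3g and Cd3d in both lists, Cd4 in the control-labelled list only (3236 bp) and Cd2 in the BN1-labelled list only (6469 bp).

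The 5 death domain receptors differed among themselves. Tnfrsf1a, the widely expressed TNF receptor (chromosome 6, 125349723 to 125362483), was acetylated at its start in both lists, with a peak of 5895 bp (fold 22.1) labelled control and of 3312 bp (fold 20.6) labelled BN1. These stood at percentiles 93.7 and 87.0 of their lists. On the Scnn1a side, 4 weaker peaks of 294 to 1516 bp were called in the BN1-labelled list only. On the Plekhg6 side, a peak of 1611 bp (fold 6.89) was called in the control-labelled list only. In total the window held 7506 bp labelled control and 6129 bp labelled BN1, a difference that changed sign per Mb (78.6). Fas had a single weak peak over its start in the control-labelled list (779 bp, fold 4.04), which was gone with lists of equal length.

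Tnfrsf21 (DR6) and Tnfrsf10b (the mouse TRAIL death receptor) went the other way. The start of Tnfrsf21 carried a peak of 1051 bp (fold 12.7) in the BN1-labelled list and none in the control-labelled list, and a region inside the gene was called in both (777 bp at fold 9.24 labelled BN1, 630 bp at fold 3.18 labelled control). Tnfrsf10b had 2 peaks inside the gene in the BN1-labelled list, of 818 bp (fold 5.83) and 295 bp (fold 3.05), and none in the control-labelled list. Tnfrsf25 (DR3) had no region in either.

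The decoy receptors were acetylated mainly in the control-labelled list. Tnfrsf26, Tnfrsf22 and Tnfrsf23 adjoin on chromosome 7 (143607685 to 143686436). Tnfrsf22 and Tnfrsf23 encode decoy receptors for TRAIL, and Tnfrsf26 is a related receptor grouped here with them. A peak of 7195 bp (fold 17.0) over the upper end of Tnfrsf26, the widest in the windows of the members, was called in the control-labelled list. Inside its span the BN1-labelled list had 2 peaks, of 1189 bp (fold 7.88) and 216 bp (fold 3.15). At the upper end of Tnfrsf23 the control-labelled list had a peak of 1853 bp (fold 19.3), and the BN1-labelled list had none at that gene. Within 10 kb the lengths were 8787 against 2132 bp at Tnfrsf26, 5607 against 1405 bp at Tnfrsf22, all of it nearer to Tnfrsf26, and 2643 against 0 bp at Tnfrsf23. Tnfrsf11b, which encodes osteoprotegerin, the decoy receptor for RANK ligand, had no region in either list. Tnfrsf22 and Tnfrsf23 are close copies of each other, so reads in their shared sequence may not be assigned with certainty.

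Tnfrsf11a, which encodes RANK, the receptor that drives osteoclast formation (chromosome 1, 105780673 to 105849444), had 4 peaks in the control-labelled list and none in the BN1-labelled list. They covered 6153 bp, from the start (1738 bp, fold 13.4) into the first part of the gene, where the strongest was 2823 bp wide (fold 17.1, percentile 88.1). All of them remained at a −log10 q of at least 10. Neither its ligand Tnfsf11 nor its decoy Tnfrsf11b had a region.

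Tnfrsf1b, the TNF receptor of blood cells that lacks a death domain (chromosome 4, 145212368 to 145246870), had the most acetylated length of the family in the control-labelled list and was also acetylated in the BN1-labelled list. At the start the peaks were 2227 bp (fold 21.8) labelled control and 1696 bp (fold 19.0) labelled BN1. A region with its summit 5902 and 5914 bp from the start was called in both, at 3117 bp (fold 15.2) and 3754 bp (fold 24.7), and there the BN1 peak was the strongest receptor peak of its list. The control-labelled list had 14 peaks (13509 bp) and the BN1-labelled list had 4 (7444 bp). Of the 14, 9 were unshared, 6 of them inside the gene, with a fold enrichment of 3.15 to 8.09. The rank depended on the setting. With lists of equal length Tnfsf12 (12286 bp) was longer than Tnfrsf1b (11749 bp) in the control-labelled list. Under a −log10 q minimum of 10, Tnfsf12 (12286 bp), Tnfsf13 (11226 bp) and Tnfsf9 (10458 bp) were longer there than Tnfrsf1b. Tnfrsf1b then had 8860 bp labelled control against 6884 bp labelled BN1. The neighbour Tnfrsf8 (CD30) had no peak at its start in either list. It had 7058 bp labelled control and 1114 bp labelled BN1, led by a control peak of 4236 bp (fold 12.4) at its far end, and the 4 BN1 peaks had a fold enrichment of at most 4.20.

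The monocyte and macrophage markers differed in the same direction as these receptors. Of 12 such genes, 10 were longer in the control-labelled list and 1 in the BN1-labelled list, with 59522 bp summed labelled control and 13046 bp labelled BN1. Adgre1, Mertk and Cx3cr1 had no region in the BN1-labelled list, and Ccr2 had none in either. Their part in the differences at Tnfsf9, Tnfsf13b, Tnfrsf11a, Tnfrsf1b and the decoy receptors was not tested.

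Of 5 receptors known from B cells, Tnfrsf13b and Tnfrsf13c were called in the BN1-labelled list only, Tnfrsf17 and Cd27 in both and Cd40 in the control-labelled list only. Tnfrsf13b (TACI), the receptor for BAFF and APRIL (chromosome 11, 61126283 to 61153170), had 2 peaks in the BN1-labelled list and none in the control-labelled list. A peak of 656 bp (fold 8.61) lay inside the gene, and the other, of 1283 bp (fold 9.21), lay 6648 bp outside it and nearer to Usp22. With 1939 bp in all it ranked 644 of 21887 genes by the difference in bp toward the BN1-labelled list. Per Mb its difference (101.4) was below those of Tnfrsf14 (215.2) and Ltb (214.7), and with peaks given to the nearest gene only it was 656 bp, below the 2162 bp of Ltb. Tnfrsf13c (the BAFF receptor) had only a weak BN1 peak of 286 bp (fold 2.58) outside the gene. At Tnfrsf17 (BCMA, of plasma cells) and Cd27 the peaks in both lists lay outside the gene, nearer to Snx29 and to Tapbpl. Cd40, the B cell and dendritic cell receptor for T cell help, had a weak peak of 342 bp (fold 2.84) just below the gene in the control-labelled list, which was gone with lists of equal length. Of the 13 B lymphoid markers, 12 were longer in the BN1-labelled list (50292 bp summed, against 7425 bp labelled control). Pax5, Ebf1, Cd79b, Blk and Vpreb3 had no region in the control-labelled list, and Ms4a1 had none in the BN1-labelled list. Their part in the Ltb, Tnfrsf13b and Tnfrsf13c differences was not tested. Neutrophil markers differed in the same direction, 9 of 12 longer in the BN1-labelled list (12373 bp summed labelled control, 45492 bp labelled BN1), with Elane and Mpo at no region in either. Of 10 erythroid markers, 6 were longer in the BN1-labelled list and 2 in the control-labelled list (6935 bp summed labelled control, 11145 bp labelled BN1). Per Mb the counts were 8 and 0, and Gata1 and Alas2 had no region in either list. Of 6 mast cell and basophil markers only Hdc had a region (11798 bp labelled BN1). The part of these markers was not tested either.

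Tnfrsf14 (HVEM), the receptor for LIGHT and a partner of the inhibitory receptor Btla, was acetylated in both lists at the same 3 places. At its start the peaks were 2614 bp (fold 11.4) labelled control and 3790 bp (fold 12.5) labelled BN1. The other regions were 1906 bp (fold 17.2) and 3322 bp (fold 11.9) on the far side of the gene, and 2180 bp (fold 27.2) and 713 bp (fold 5.80) before the start. The control peak before the start was the strongest peak of any member in its list, at percentile 96.7, whereas the BN1 peak in the same place lay below the median fold enrichment of its list (6.65). Over the window, 6972 bp labelled control and 8412 bp labelled BN1 were covered. Ltbr, the lymphotoxin beta receptor, had a peak at its start in both lists, of 2000 bp (fold 13.1) labelled control and 1092 bp (fold 6.74) labelled BN1, and the control peak also touches the end of Scnn1a.

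Of the remaining receptors, Tnfrsf12a (Fn14, the receptor for TWEAK) had a peak of 2405 bp (fold 8.87) across the whole gene, reaching Hcfc1r1, in the control-labelled list and none inside it in the BN1-labelled list. Its window totals were 3705 and 264 bp. Its ligand Tnfsf12 was longer in the same list, as given above. Tnfrsf19 (TROY) had a peak of 454 bp (fold 4.59) at its start in the BN1-labelled list only, which did not remain at a −log10 q of at least 10. At Tnfrsf18 (GITR) the peaks lay outside the gene in both lists (384 bp labelled control, 832 bp labelled BN1). Tnfrsf4 (OX40) had no region in either.

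Some ligands and receptors that bind each other can be set side by side, by the calls in their 10 kb windows, and not every pair is listed. Tnfsf9 was called in the control-labelled list only and its receptor Tnfrsf9 in both, though through peaks nearest to Park7. RANK (Tnfrsf11a) was called in the control-labelled list only and its ligand in neither. For BAFF the ligand was called in the control-labelled list only and 2 of its 3 receptors in the BN1-labelled list only. Neither of these 2 had a peak at its start, and Tnfrsf13c rested on 1 weak peak outside the gene (286 bp, fold 2.58). LIGHT (Tnfsf14) was called in the control-labelled list only, and its receptors Tnfrsf14 and Ltbr in both. TWEAK (Tnfsf12) and its receptor Tnfrsf12a were called in both and were longer in the control-labelled list. The BN1-labelled call at Tnfrsf12a rested on 1 peak of 264 bp, nearest to Hcfc1r1 and Thoc6. Tnf, Tnfrsf1a and Tnfrsf1b were called in both, as were Lta, Ltb and Ltbr, Lta through peaks outside the gene. TRAIL (Tnfsf10) and its receptor Tnfrsf10b were called in the BN1-labelled list only, Tnfsf10 through 1 weak peak (224 bp, fold 3.94).

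Other genes of the pathway, for signalling below the receptors or for TNF shedding, nearly all had regions in both lists. The 42 pathway genes were those for TRAF adaptors, death signalling, ubiquitin enzymes, NF-kB and shedding (a list drawn up with earlier results of these data known). Of them, 41 had a region in both lists, beside 50.2% of all genes, and 1, the necroptosis kinase Ripk3, had none in either. These genes are long, with a median of 30953 bp against 12761 bp for the members, so their windows were wider, and the difference from the members was not tested. A start within 1000 bp of a peak in both lists was found at 33 of the 35 with a start in the table (40.6% of all genes). In bp, 32 were longer in the control-labelled list and 9 in the BN1-labelled list (43.9% and 18.2% of all genes), and per Mb 19 and 22 (26.0% and 36.2%). Their median difference was -891 bp, or 9.43 bp per Mb.

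The largest differences toward the control-labelled list were at Cflar, the caspase-8 inhibitor c-FLIP (21205 against 4651 bp), and Tnip1, a partner of the NF-kB brake A20 (16139 against 1205 bp). Rhbdf2, needed for TNF shedding (10873 against 3285 bp), Otulin, a linear deubiquitinase (11105 against 4213 bp), and Map3k14, the NF-kB inducing kinase NIK (10626 against 4991 bp), followed. Tnip1 was the only 1 of the 35 with a peak at the start in the control-labelled list alone. Toward the BN1-labelled list the largest were Nfkb1 (2604 against 5688 bp), Cyld, a deubiquitinase that restrains NF-kB (1231 against 2954 bp), Ikbkb (2346 against 3336 bp), Birc3 (3778 against 4606 bp) and Map3k7 (1798 against 2471 bp).

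**Figure D4:**
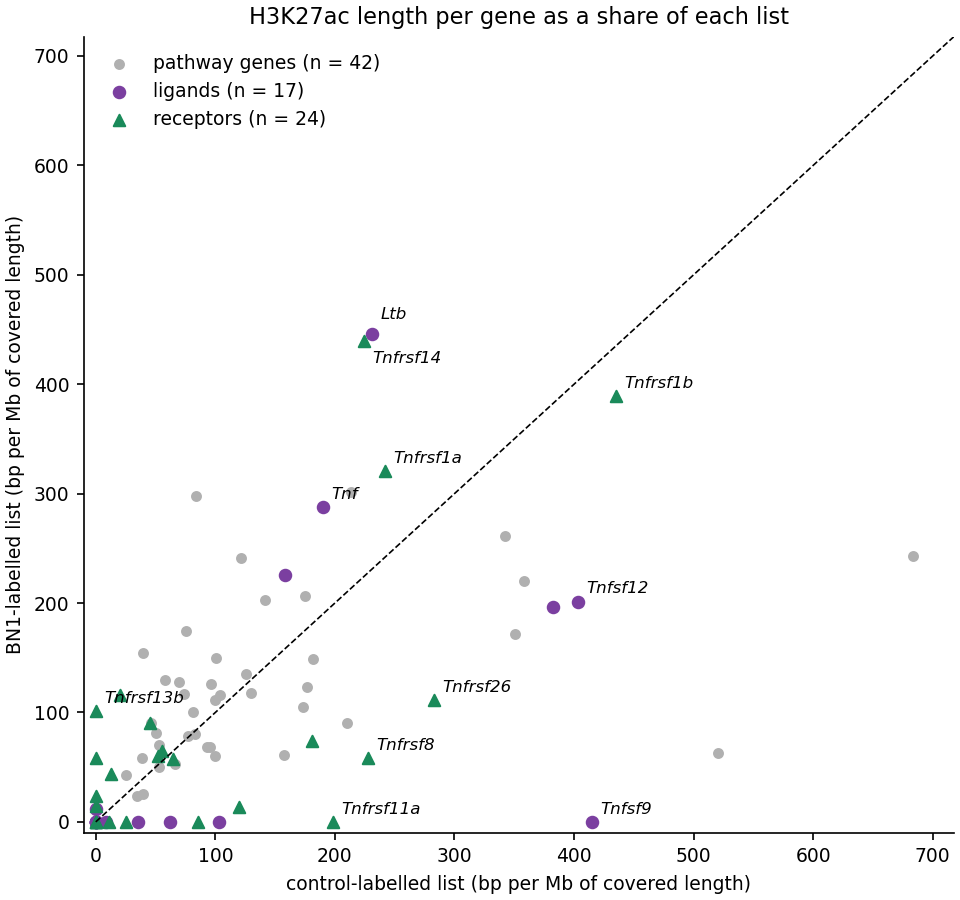
Acetylated length per gene as bp per Mb of the covered length of the control-labelled list (x axis) and of the BN1-labelled list (y axis), for ligands (purple circles), receptors (green triangles) and pathway genes (grey), with the line of equal values. Tnfsf9 and Tnfrsf11a lie on the x axis, Ltb and Tnfrsf14 lie above the line, and 14 members with a region lie on an axis where no pathway gene does.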

How the data were processed

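Members and lists were chosen with earlier results of these data known. H3K27ac fanChIP (fractionation-assisted native ChIP) peak lists of 2 libraries were used as deposited. The submitters' processing notes name MACS3 3.0.1, deepTools 3.5.1, Picard 3.2.0 and Bowtie2 2.5.4, without role or order, and mm10 (GRCm38). Input use, pooling and the calling threshold were not given in the sources used here. For every peak the authors deposited a fold enrichment (a linear ratio), −log10 of p and of q, and a score, which was not used. Fold enrichment described peaks within their list only.

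Groups came from sample titles. Peaks were intersected with RefSeq genes of GRCm38.p6 (21887 protein-coding), using pandas 2.3.3, scipy 1.17.1 and numpy 2.4.6 in Python 3.11.15. The interval code was tested on simulated data. There was 1 library per group, so nothing was tested, and depth is unknown. Every member is named or counted, and single values of some marker genes are not reported here. Full values went to members that differed by at least 2000 bp, had as much in both lists, or were named in the design, and pathway genes were the 5 largest differences per direction. Alternatives covered −log10 q minimums, equal list lengths, flanks, nearest-gene assignment, overlap, scale and 1 member per cluster of overlapping windows.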

Additional observations from a re-analysis of the deposited data

How the results depend on the processing

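No paired analysis was possible because each group has 1 library. Counts of members with a region or longer in a list stayed within 1.5 times of the values given under every setting run, except without flanks, where 14 members had a BN1-labelled region and 6 were longer there. In that setting the median difference was -24.7 bp per Mb. It turned to 0.067 bp per Mb with lists of equal length, and on the bp scale it was -691. The classes moved more. Members with a region in both lists (18) numbered 10 without flanks, 28 with 50 kb flanks and 11 by nearest gene. Control-only members (9) numbered 5 with 50 kb flanks and 6 with lists of equal length, BN1-only members (5) numbered 3 under a −log10 q minimum of 10, and those in neither (9) ranged from 4 to 19. Shares of shared peaks stayed within their intervals. Without a change of sign, single differences moved by over 1.5 times, or to or from 0, at 22 of 41 members without flanks, 24 with 50 kb flanks, 11 under that q minimum and 10 by nearest gene. Members changed sign in 12 cases. With 50 kb flanks the BN1 minus control difference was -5878 bp at Ltb, -5228 at Cd27, -979 at Tnfrsf14, -212 at Tnfsf10 and 181 at Tnfrsf9. Per Mb it was 97.7 at Tnf, 67.1 at Lta, 9.63 at Tnfrsf17, 7.63 at Tnfrsf9 and 78.6 at Tnfrsf1a. At a −log10 q of at least 10 it was 400 bp at Tnf, and with peaks given to the nearest gene only -384 bp at Tnfrsf18. Causes were not tested, beyond what each setting changes by construction. Depth, which is unknown, limits the calling of weak regions.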
